A study of Mus musculus with 6 samples.

Results

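The 10 genes described here encode the contractile apparatus of smooth muscle: Acta2, Actg2, Tpm1, Tpm2, Tagln, Cald1, Cnn1, Mylk, Myl9 and Des. They were taken by symbol from the 14472 genes of a table comparing 2 forms of mLPS1, a line of mouse tumour cells labelled dedifferentiated liposarcoma. Dedifferentiated liposarcoma is a sarcoma related to fat cells in which most of their features are lost. All 10 symbols were found, each on 1 row, and all 10 had a p-value. The altered form is labelled NICD knockout (3 libraries, with p numbers 34, 36 and 39 in their titles), and the other is labelled wild type (3 libraries, p numbers 35, 37 and 40). NICD is the intracellular fragment of a Notch receptor, which enters the nucleus on activation and switches on genes with the DNA-binding protein Rbpj. The labels give 1 line per genotype and do not say whether the libraries are separate cultures, so the p-values measure the spread between these libraries, and that spread may be purely technical. The series title names Notch over-expression and its design text calls the second cell form dNICD, and no label used here says whether the wild type line carries an added Notch fragment.

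Smooth muscle contracts when calcium and calmodulin activate the kinase Mylk, which phosphorylates the regulatory light chain Myl9 and lets myosin pull on actin filaments. The filaments are built of the actins Acta2 and Actg2 and wrapped by tropomyosins, and Cald1, Cnn1 and Tagln bind along them. Des forms the intermediate filaments that tie the apparatus together. These genes are classically driven by serum response factor (Srf) with its cofactor myocardin through DNA elements called CArG boxes, and Notch signalling is known to switch on Acta2 in cells of the vessel wall.

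In the knockout line 7 of the 10 genes were lower and 0 were higher, at an adjusted p under 0.05 in the authors' deposited table of DESeq2 results. Over all 14470 tested genes 25.1% were lower and 25.4% were higher at the same adjusted p, and among 10479 genes averaging 100 or more normalised counts, which hold 9 of the 10, 30.2% were lower. At an unadjusted p under 0.05, 9 of the 10 genes were lower and 0 higher, among them the barely detected Cnn1. The share of all genes at that unadjusted threshold was not computed, so this count has no background beside it. In 5 of the 10 genes the called fall was 2-fold or more, against 9.74% of all tested genes. The median log2 ratio (the log2 fold change, knockout over wild type) of the 10 was -1.47, against 0.02 over all tested genes. The 10 genes and the lists used below were chosen with earlier results of these data known. The shares of all genes set beside them are therefore descriptive. The falls were very uneven. Actg2 and Tagln fell by more than 100-fold, Acta2 and Myl9 fell less steeply, and Cald1, Tpm2 and Des fell by about 2-fold or less. Mylk, Tpm1 and Cnn1 did not pass. The libraries are bulk RNA, so fewer cells of a type and less RNA per cell cannot be told apart.

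The table holds 1 value per gene and no values of single libraries were used here, so the depth of single libraries is unknown. The deposited means of normalised counts summed to 21033526 over all genes. Levels given for a group are normalised counts fitted from the deposited mean and fold change, and they carry no error of their own. Intervals are 95% Wald intervals of the log2 ratio. The median standard error (SE) was 0.16 for genes averaging 100 or more and 0.77 for the other 3991. As a check of the labels, Notch1 had a log2 ratio of -1.78 (SE 0.13) and the direct Notch target Heyl one of -10.65 (SE 1.11) per the authors' deposited table, both lower in the knockout, and Notch1 had a fitted level of 2234 there, against 7665 in wild type. The value of Notch1 does not separate an introduced fragment from the endogenous gene.

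**Figure D1:**
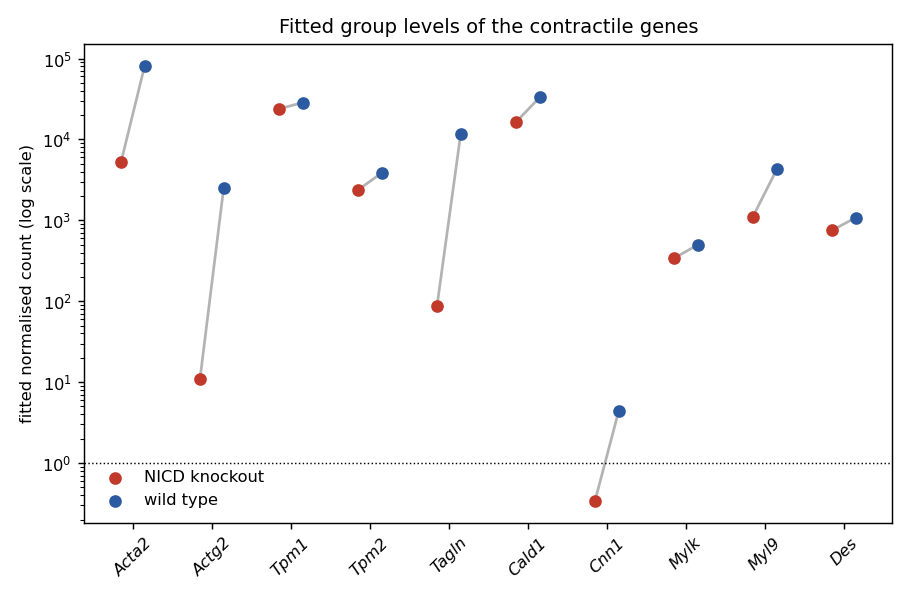
Fitted normalised counts (log axis) of the 10 contractile genes in the NICD knockout (red, left of each pair) and in wild type (blue, right), with a grey line joining the 2 groups and a dotted line at 1 count per library. The steep lines belong to Acta2, Actg2 and Tagln, while Tpm1 lies at 23922 in the knockout and 28507 in wild type.

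The sequences just upstream of 3 of the genes are shown because they hold, or lack, letter matches to elements that Srf and Rbpj can bind. They belong to a gene that fell steeply, a gene that fell less and a gene that did not pass. RefSeq windows of 250 bases ending at the annotated start (build GRCm38.p6) were matched for 8 of the 10 genes, in 9 windows, as Cald1 has a pair of starts. Tagln and Actg2 were not matched. Both strands were searched for the CArG box, for a CArG-like box in which 1 of the 6 inner bases is G or C, for TGGGAA, the core bound by Rbpj, and for CATTCC, the core bound by the Tead factors. Capitals mark every match. Acta2 lies on the minus strand of chr19:34255374-34255623, Myl9 on the plus strand of chr2:156775214-156775463 and Tpm1 on the minus strand of chr9:67049214-67049463, and each is written 5′ to 3′ along its gene.
Acta2: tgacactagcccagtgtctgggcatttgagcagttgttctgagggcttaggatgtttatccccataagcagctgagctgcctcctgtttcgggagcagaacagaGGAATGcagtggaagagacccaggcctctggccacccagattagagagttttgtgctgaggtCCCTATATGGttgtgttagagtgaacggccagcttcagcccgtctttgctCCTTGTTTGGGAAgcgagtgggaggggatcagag
Myl9: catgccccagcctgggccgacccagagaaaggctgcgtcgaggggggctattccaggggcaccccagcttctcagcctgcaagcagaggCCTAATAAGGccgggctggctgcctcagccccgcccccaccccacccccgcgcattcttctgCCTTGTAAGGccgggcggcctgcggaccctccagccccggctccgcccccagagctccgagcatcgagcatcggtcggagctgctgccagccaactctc
Tpm1: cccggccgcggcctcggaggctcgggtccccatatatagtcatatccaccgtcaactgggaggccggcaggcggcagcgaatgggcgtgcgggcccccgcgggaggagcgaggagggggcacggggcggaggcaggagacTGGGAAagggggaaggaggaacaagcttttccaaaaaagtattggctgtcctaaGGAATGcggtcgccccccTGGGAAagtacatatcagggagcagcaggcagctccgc

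The Acta2 window held 2 CArG-like boxes, 84 to 75 and 34 to 25 bases upstream of the start. A TGGGAA core 27 to 22 bases upstream overlapped the nearer box, and a CATTCC core on the other strand stood 146 to 141 bases upstream. The Myl9 window held a CArG box 161 to 152 bases upstream and a CArG-like box 99 to 90 bases upstream, with neither core. The Tpm1 window, of a gene that did not pass the test, held no box but had TGGGAA 110 to 105 and 38 to 33 bases upstream and CATTCC on the other strand 56 to 51 bases upstream. The other windows held no box and no TGGGAA. They belong to Des, Tpm2 and Cald1, which were called lower, and to Mylk and Cnn1, which did not pass. CATTCC was found once in the Mylk window and once in 1 of the Cald1 windows. Of all 32841 windows of this length, 1.47% held a CArG box, 7.24% a CArG-like box, 21.6% TGGGAA and 12.6% CATTCC. These are matches of letters in a short window and say nothing of whether a factor binds there.

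The thin filament actins were among the steepest falls. Acta2 (ENSMUSG00000035783, chromosome 19), the alpha actin that is the most used marker of smooth muscle and myofibroblasts, had a fitted level of 5224 in the knockout, against 81441 in wild type. It fell 15.6-fold per the authors' deposited table (log2 ratio -3.96, SE 0.22, adjusted p = 2.81e-72). Actg2 (ENSMUSG00000059430, chromosome 6), the gamma actin of visceral smooth muscle, had a fitted level of 11.0 in the knockout, against 2515 in wild type. Its log2 ratio per the authors' deposited table was -7.84 (SE 0.35, adjusted p = 1.25e-106), a 229-fold fall. The intervals of the 2 actins, -4.39 to -3.54 for Acta2 and -8.53 to -7.15 for Actg2, did not overlap. Among those 10479 more abundant genes, Actg2 had the 27th steepest fall and Acta2 the 134th. The coding parts of the actin genes are close copies, so reads can be split among them and the values of single actins are uncertain.

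The tropomyosins are coiled-coil proteins that lie along the actin filament and are made in muscle and in other cells from alternative transcripts. Tpm1 and Tpm2 moved less than Acta2 and Actg2. Tpm1 (ENSMUSG00000032366, chromosome 9) had a fitted level of 23922 in the knockout and 28507 in wild type, and its log2 ratio of -0.25 per the authors' deposited table did not pass (interval -0.55 to 0.04, adjusted p = 0.148). Tpm2 (ENSMUSG00000028464, chromosome 4), the beta tropomyosin, had 2370 in the knockout, against 3857 in wild type. It fell 1.63-fold per the authors' deposited table (log2 ratio -0.70, SE 0.18, adjusted p = 3.65e-04). Each gene has 1 value in the table, so muscle and non-muscle transcripts of a gene are summed in it.

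Of the proteins that bind along the thin filament, Tagln fell by far the most among those that passed. Tagln (ENSMUSG00000032085, chromosome 9), or SM22 alpha, an early marker of smooth muscle differentiation, had a fitted level of 87.1 in the knockout, against 11694 in wild type. The log2 ratio per the authors' deposited table was -7.07 (SE 0.23, adjusted p = 4.50e-206), a 134-fold fall and the 40th steepest among genes with a mean of at least 100. In the reference annotation 1241 bases of Tagln exon also lie in exons of the antisense gene Gm48529 and 108 in those of Pcsk7 on the other strand, and whether counting used strand is not stated in the labels or processing notes. Pcsk7 fell far less, with a log2 ratio of -0.39 (adjusted p = 0.0144) per the authors' deposited table. Cald1 (ENSMUSG00000029761, chromosome 6), caldesmon, which inhibits actomyosin in smooth muscle and also has a non-muscle form, had 16391 in the knockout and 33154 in wild type. Its fall was 2.02-fold per the authors' deposited table (log2 ratio -1.02, SE 0.15, adjusted p = 1.04e-10). Cnn1 (ENSMUSG00000001349, chromosome 9), calponin, a marker of mature smooth muscle, was close to undetected in both groups, with fitted levels of 0.34 in the knockout and 4.40 in wild type. Its log2 ratio of -3.69 (SE 1.85) per the authors' deposited table did not pass (adjusted p = 0.0837), and with the knockout set at 1 count per library, 3 over the group, it was -2.14.

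The kinase and the light chain it acts on differed in size of change. Myl9 (ENSMUSG00000067818, chromosome 2), the smooth muscle regulatory light chain, had a fitted level of 1114 in the knockout, against 4254 in wild type. It fell 3.82-fold per the authors' deposited table (log2 ratio -1.93, SE 0.22, adjusted p = 1.04e-17). Mylk (ENSMUSG00000022836, chromosome 16), the kinase that phosphorylates it, had 339.7 in the knockout and 497.9 in wild type. Its log2 ratio of -0.55 (SE 0.26, interval -1.06 to -0.05) per the authors' deposited table did not pass after adjustment (adjusted p = 0.0611). The intervals of these genes did not overlap. Des (ENSMUSG00000026208, chromosome 1), desmin, the muscle intermediate filament protein, had 752.1 in the knockout and 1079 in wild type. It fell 1.43-fold per the authors' deposited table (log2 ratio -0.52, SE 0.13, adjusted p = 1.63e-04).

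Because a change shared by a stretch of chromosome would also move the genes on it, each change was set beside the median log2 ratio of 10 expressed protein-coding genes on either side. This median lay between -0.34 and 0.17 for 8 of the genes. It was -0.73 around Cald1 and -0.81 around Actg2, both on chromosome 6. With the neighbour median subtracted, Cald1 had a log2 ratio of -0.29 and did not pass (adjusted p = 0.102, Wald test across all genes). Actg2 kept a log2 ratio of -7.03 and its call. The test used the SE of each gene alone and took the neighbour median as free of error. Adjusted p-values with neighbours subtracted, here and below, may therefore be too small, and calls near the threshold are uncertain.

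**Figure D2:**
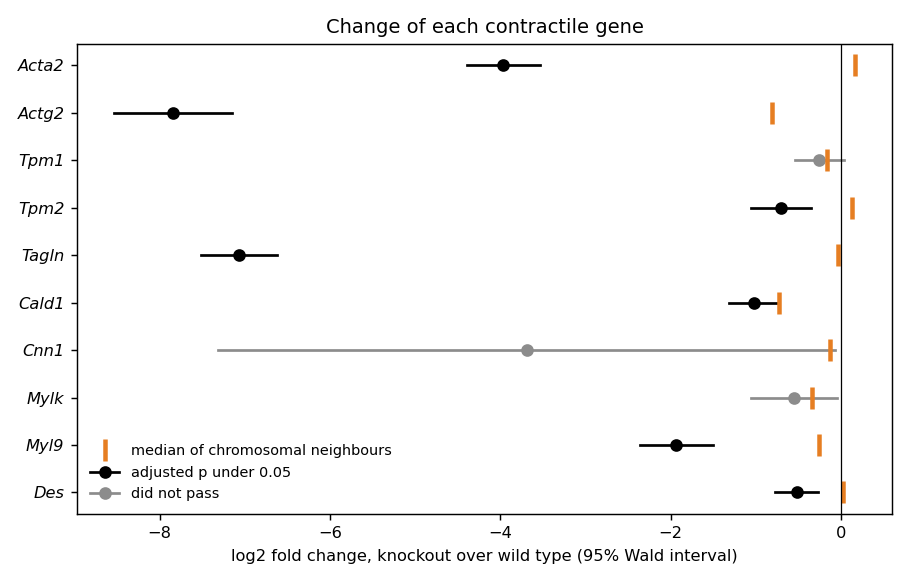
Log2 ratio, knockout over wild type, of each contractile gene (point) with its 95% Wald interval (line), black where the adjusted p was under 0.05 and grey where it was not, and the median of its chromosomal neighbours (orange bar). Actg2, Tagln and Acta2 stand far left of their neighbours, the Cald1 interval of -1.31 to -0.72 reaches its neighbour median of -0.73, and the wide interval is that of Cnn1.

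Levels of different contractile genes were compared only per kilobase (kb) of exon, in fitted normalised counts. The summed levels of marker lists given below are not divided by exon length. In wild type Acta2 had 37086 per kb of merged exon, far above Tagln at 5882, Tpm1 at 4396 and Myl9 at 3661, and Mylk and Cnn1 were lowest at 44.2 and 1.61. In the knockout Tpm1 led with 3689 per kb, followed by Acta2 at 2379 and Cald1 at 1361. Tagln had 43.8 per kb in the knockout and Actg2 7.05 per kb. With the longest transcript in place of the merged exons, Acta2 again led in wild type (40020 per kb) and Tpm1 in the knockout (8278 per kb), while the genes between them changed places, and no error can be given for these levels.

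The contractile genes were next set beside other members of the same protein families, which include non-muscle forms and forms of cardiac and skeletal muscle. Of 20 tested close relatives 10 were lower and 3 higher per the authors' deposited table, at a list median of -0.51 (log2 ratio), against 25.1% lower and 25.4% higher over all tested genes. Among the actins the cytoplasmic Actb fell with a log2 ratio of -0.56 (SE 0.17, adjusted p = 0.00272) and Actg1 did not pass at 0.39 (interval 0.002 to 0.78, adjusted p = 0.0886) per the authors' deposited table. The neighbours of Actb had a median of -0.32 and those of Actg1 of 0.60, and Actb did not pass with them subtracted. The cardiac actin Actc1, at 0.17 in the knockout and 53.8 in wild type, fell with a log2 ratio of -8.30 (SE 1.30) per the authors' deposited table, or -5.75 with the knockout at 1 count per library. Skeletal Acta1 was scarce, at 2.29 in the knockout and 12.6 in wild type, and fell with a log2 ratio of -2.46 per the authors' deposited table.

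The non-muscle tropomyosin Tpm4 fell with a log2 ratio of -1.08 (SE 0.13) per the authors' deposited table, and its interval of -1.33 to -0.83 overlapped that of Tpm2 (-1.06 to -0.35) but not that of Tpm1. Tpm3 did not pass at 0.13 (interval -0.13 to 0.38, adjusted p = 0.433). Tagln2, Cnn2 and Cnn3, the relatives of Tagln and Cnn1 that most cell types make, fell with log2 ratios of -0.46, -0.83 and -0.41 per the authors' deposited table. The interval of Tagln, -7.52 to -6.62, lay far from that of Tagln2, -0.79 to -0.14. The non-muscle regulatory light chains went opposite ways: Myl12a fell with a log2 ratio of -0.57 (SE 0.11) and Myl12b rose with 0.62 (SE 0.12) per the authors' deposited table, with neither interval overlapping that of Myl9, -2.36 to -1.51. Myl12a did not pass with its neighbours, at a median of -0.35, subtracted. Myl6, an essential light chain shared by smooth muscle and non-muscle myosin, did not pass at -0.18 but was lower, at -0.47, with its neighbours subtracted (adjusted p = 1.83e-06). Its relative Myl6b rose with a log2 ratio of 1.62 per the authors' deposited table. Of the intermediate filament genes, Vim fell with a log2 ratio of -0.56 and Nes with -1.47 per the authors' deposited table, Synm did not pass at 0.25, and Sync rose with 0.90. With neighbours subtracted Vim did not pass, and Synm was higher at 0.74 (adjusted p = 0.0271). The Des and Vim intervals, -0.77 to -0.27 and -0.91 to -0.21, overlapped.

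**Figure D3:**
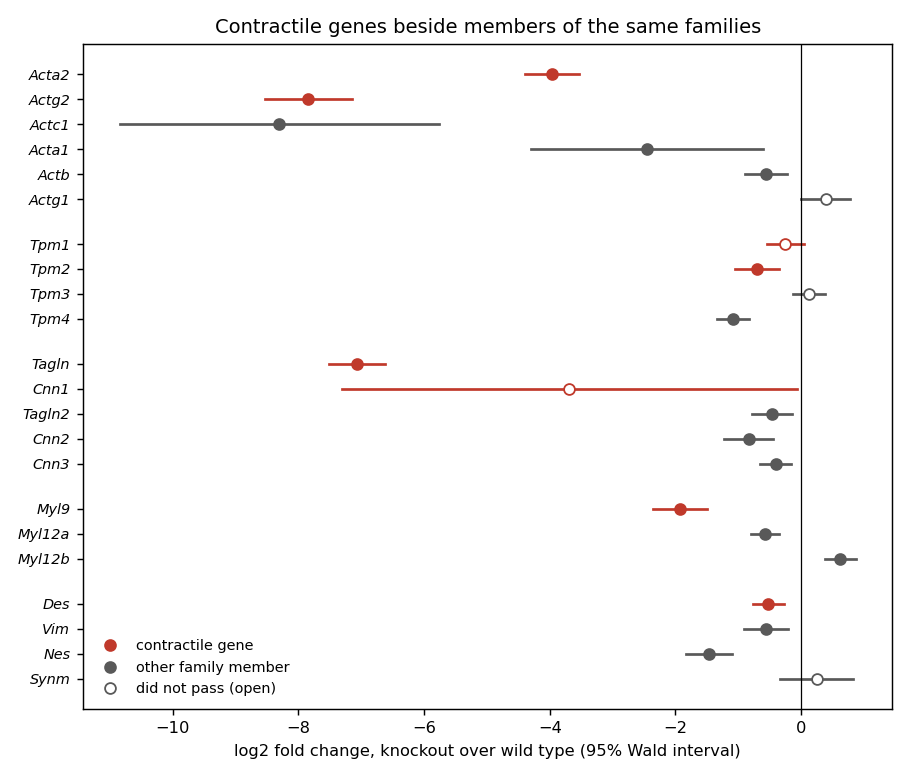
Log2 ratio with 95% Wald interval for the contractile genes (red) and other members of their families (grey), in blocks of actins, tropomyosins, transgelins with calponins, regulatory light chains and intermediate filaments, with open points where the adjusted p was 0.05 or more. Tagln at -7.07 and Myl9 at -1.93 stand apart from their relatives, while Tpm1, Tpm2 and Des lie among theirs.

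The make-up of these families was computed from fitted levels per kb of merged exon. Acta2 and Actg2 together made up 5.08% of the summed level of 6 actin genes in the knockout and 45.2% in wild type. The summed actin level in the knockout was 0.55 times that in wild type. Tagln and Cnn1 together were 0.45% of the transgelin and calponin family in the knockout and 28.8% in wild type. Myl9 was 27.5% of the 3 regulatory light chain genes in the knockout and 52.7% in wild type. Tpm1 and Tpm2 together went the other way, at 38.3% of 4 tropomyosin genes in the knockout and 31.1% in wild type. Taken per kb of the longest transcript, the shares were 4.03% and 39.3% for the 2 actins, 0.47% and 29.7% for Tagln with Cnn1, 19.3% and 40.5% for Myl9 and 46.3% and 41.8% for the tropomyosins, knockout before wild type. These shares have no error, since the table gives no values of single libraries.

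**Figure D4:**
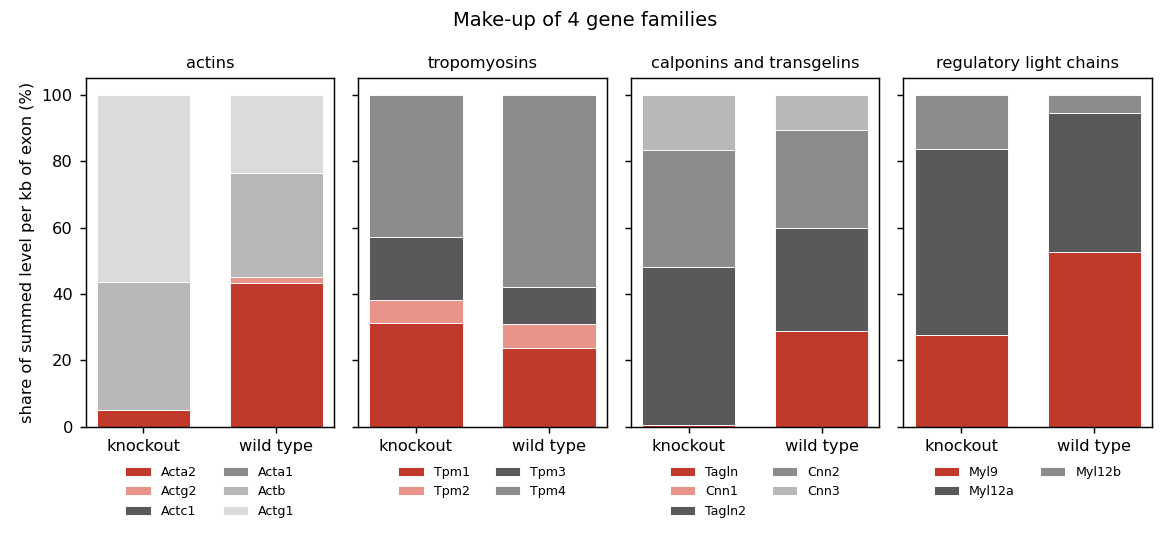
Share of each gene (%) in the summed fitted level per kb of merged exon of its family, for the knockout (left bar) and wild type (right bar) of each panel. Red shades mark contractile genes and greys their relatives, and the red part is 5.08% in the knockout and 45.2% in wild type for the actins, but 38.3% and 31.1% for the tropomyosins.

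Other proteins of the smooth muscle cell were lower too. Of 39 tested genes on a wider list of contractile, adhesion and ion channel proteins, 29 were lower and 4 higher per the authors' deposited table, at a list median of -0.94 (log2 ratio), against 25.1% and 25.4% over all tested genes. Kcnmb1, the beta subunit of the calcium-activated potassium channel of smooth muscle, had a fitted level of 120.3 in the knockout and 3409 in wild type, and its log2 ratio per the authors' deposited table was -4.83 (SE 0.23, adjusted p = 1.02e-96). The next by p were Ppp1r14a, an inhibitor of myosin phosphatase, Smtn, or smoothelin, and the actin cross-linker Actn1. These fell 3.87-fold, 3.56-fold and 3.61-fold per the authors' deposited table. The neighbours of Actn1 had a median log2 ratio of -0.85. Pdlim7 and the integrin gene Itga7 fell 2.21-fold and 2.12-fold per the authors' deposited table. Myh11, the smooth muscle myosin heavy chain and a specific marker of the lineage, was singled out after its value was seen. It was scarce, with a fitted level of 3.47 in the knockout and 81.3 in wild type, and fell with a log2 ratio of -4.55 (SE 0.76, adjusted p = 1.18e-08) per the authors' deposited table. The 4 that rose per the authors' deposited table were the kinase gene Dmpk (5.57-fold), the phosphatase subunit Ppp1r12b (3.53-fold), Fhl2 (1.62-fold) and the small heat shock protein Hspb6 (1.49-fold). Hspb6 did not pass with its neighbours subtracted. Of the non-muscle myosin heavy chains, Myh9 fell 1.62-fold per the authors' deposited table. Myh14 was fitted at 28.1 in the knockout and below 1 count per library in wild type, and rose with a wide interval of 3.55 to 9.13 (log2 ratio).

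Of 19 tested transcription factors and cofactors linked to smooth muscle genes, 10 were lower and 3 higher per the authors' deposited table, at a list median of -0.32 (log2 ratio), against 25.1% lower and 25.4% higher over all tested genes. Myocd, which encodes the muscle-restricted Srf cofactor myocardin, had a low fitted level of 29.5 in the knockout, against 118.4 in wild type, a 4.01-fold fall per the authors' deposited table (SE 0.53 on the log2 scale, adjusted p = 5.48e-04). Srf itself fell 1.70-fold per the authors' deposited table (log2 ratio -0.77, SE 0.12, adjusted p = 1.97e-10). Mrtfb, a myocardin-related cofactor that responds to actin, fell 2.85-fold per the authors' deposited table, and its relative Mrtfa did not pass at a log2 ratio of -0.19 (interval -0.49 to 0.10). With neighbours subtracted Mrtfa was lower, at -0.34 (adjusted p = 0.0481), and Mef2a, which did not pass at 0.15 as deposited, was higher at 0.47 (adjusted p = 6.52e-04). Mef2c, Tead1, Tead3, Mef2d and Prrx1 fell with log2 ratios between -1.59 and -0.59 per the authors' deposited table. The last to pass were Ybx1 at -0.34 and Zfp148 at -0.32, and Zfp148 did not pass after centring or with its neighbours subtracted. Klf4, a repressor of smooth muscle genes during phenotypic switching, had 572.8 in the knockout, against 34.1 in wild type, and rose 16.8-fold per the authors' deposited table (log2 ratio 4.07, SE 0.29, adjusted p = 1.39e-43). Klf5, a relative of Klf4, rose 1.93-fold and Elk3, an ets-family partner of Srf, rose 1.52-fold per the authors' deposited table.

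**Figure D5:**
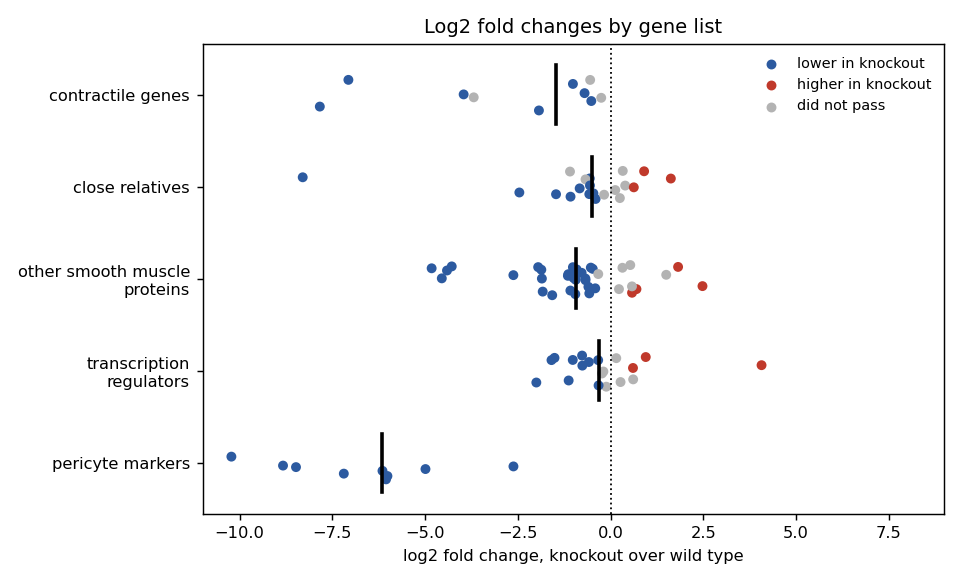
Log2 ratio, knockout over wild type, of every tested gene of 5 lists (points, blue lower, red higher, grey not passed), with the list median (black bar) and the median of all tested genes at 0.02 (dotted line). The medians are -1.47 for the contractile genes, -0.51 for their close relatives and -6.15 for pericyte markers, and the red point at 4.07 is Klf4.

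Markers of other cells were read in the same table, in which 25.1% of all tested genes were lower and 25.4% higher. Summed levels are fitted counts not divided by exon length, so abundant or long genes weigh most in them. Of 11 tested mesenchymal markers 7 were lower and 3 higher per the authors' deposited table, with a summed fitted level of 177208 in the knockout and 377974 in wild type. Of these sums Fn1 alone held 51273 in the knockout and 134012 in wild type. Among those lower, Col3a1 fell 9.50-fold, Pdgfrb 8.11-fold, Col1a1 3.83-fold and Fn1 2.61-fold per the authors' deposited table. The 3 that were higher were Pdgfra (5.14-fold), Col1a2 (2.41-fold) and Eng (1.24-fold) per the authors' deposited table. Pdgfra had a fitted level of 172.5 in the knockout and 33.6 in wild type. Col1a2 was scarce, at 37.4 in the knockout and 15.5 in wild type. Markers of pericytes, contractile cells of small vessels that share genes with smooth muscle, were also lower, at a list median of -6.15 (log2 ratio). All 9 tested were lower per the authors' deposited table, with a summed fitted level of 3458 in the knockout and 56941 in wild type, and Kcnj8 and Vtn were fitted below 1 count per library in the knockout. Whether a change in the mix of cells has a part in the fall of the contractile genes was not tested. Endothelial markers were scarce, with a summed level of 195.3 in the knockout and 274.8 in wild type, and had 2 of 7 called lower and 0 higher by DESeq2, as the authors' deposited table has it (2 and 0 at an unadjusted p under 0.05), a share of 28.6% lower that is close to that of all tested genes. Of 8 epithelial markers 4 were tested, summing to 104.6 in the knockout and 47.1 in wild type. Of these 4, 3 were higher and 1 lower per the authors' deposited table. Krt19 and Cldn4, both among those higher, were fitted below 1 count per library in wild type. Only 7 of 10 endothelial and 6 of 10 immune markers were tested. Immune markers summed to 2464 in the knockout and 382.1 in wild type, of which Cd68 made up 2238 and 179.0, and 2 of 6 were higher and 1 lower per the authors' deposited table. The leukocyte marker Ptprc had 13.7 in the knockout and 3.74 in wild type and did not pass. Of 10 adipocyte markers 4 were tested, with 1 higher and 1 lower per the authors' deposited table and a summed level of 765.1 in the knockout and 2277 in wild type. Fabp4 had 307.4 in the knockout and 4.37 in wild type, and Lpl 414.4 in the knockout and 2229 in wild type.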

How the data were processed

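RNA of the 6 libraries was extracted with TRI Reagent, per the labels' protocols, and groups follow the genotype label. Salmon and DESeq2 were used by the authors with build mm39, per the submitters' processing notes, and no version or setting is given there. Per the file headers, the authors deposited for each gene a mean of size-factor-normalised counts (a signal that is never negative), a log2 fold change (here the log2 ratio) with its SE, the Wald statistic (a score), a p-value and its Benjamini-Hochberg adjusted p-value. That the fold is knockout over wild type is read from the name of the table. No counts of single libraries were used, so the edgeR test was not run and calls are those of the authors' DESeq2 fit across all genes. Recomputed statistics and p-values differed from theirs by at most 1.56e-13, and 2 of 14472 genes have no p.

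Group levels were fitted assuming 3 libraries a group. Neighbours, exon lengths and overlaps came from GENCODE M21 (GRCm38), matched by gene ID for 14456 rows. That build is older than mm39. It was used for gene order, gene type, exon length and exon overlap, and the RefSeq upstream windows are of the same build. The adjustment, the Wald test and the neighbour median were tested on simulated data. The 10 genes and all lists were chosen with earlier results of these data known. Named genes are the 10, their relatives, the regulators, the markers and, in the list of other smooth muscle proteins, up to 6 per direction by smallest p. Myh11, Cacna1c and Irag1 of that list, all lower, were named beyond this rule after their values were seen. Genes of that list that did not pass are not named. A further gene list is not reported here. Python 3.11.15, numpy 2.4.6, pandas 2.3.3, scipy 1.17.1 and matplotlib 3.10.9 were used.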

Additional observations from a re-analysis of the deposited data

How the results depend on the processing

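Of the 10 contractile genes 7 were lower under centring on expressed genes (a shift of -0.05) and at an adjusted p under 0.01, and 7 of the 9 with a mean of at least 100 were lower with adjustment over such genes alone. The count was 6 with neighbours subtracted, where Cald1 did not pass, 5 under Bonferroni adjustment, where Des and Tpm2 did not pass, and 4 in a test of a change beyond 2-fold (Acta2, Actg2, Tagln and Myl9). The count of higher contractile genes was 0 under all of these settings. Over all 14470 tested genes, lower and higher counts were 3317 and 3976 under centring and 2949 and 2904 at an adjusted p under 0.01. They were 1659 and 1516 under Bonferroni adjustment, and 676 and 930 in the 2-fold test. With neighbours subtracted they were 3071 and 3775 of 14453 genes. With adjustment over genes with a mean of at least 100 they were 3192 and 2577 of 10479. In the 2-fold test 1 of 20 close relatives was lower and 0 were higher. Of 39 other smooth muscle proteins 10 were lower and 2 higher, and of 19 transcription regulators 1 was lower and 1 higher. Over all 14470 tested genes 676 were lower and 930 higher in this test. The counts of lower close relatives and regulators lie near that share. Under Bonferroni adjustment 4 of 20 close relatives and 5 of 19 transcription regulators were lower, against 10 of each as deposited. Over all 14470 tested genes 1659 were lower under that adjustment. Leaving out libraries was not possible without values of single libraries. No paired analysis was possible because the table has no values of single libraries. The depth of single libraries cannot be judged, and Cnn1, with fitted levels of 0.34 in the knockout and 4.40 in wild type, did not reach a call at these levels.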

Other observations

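Of 31 listed genes of striated muscle, most of them of the sarcomere, 13 were tested, of which 4 were higher and 2 lower per the authors' deposited table, at a list median of 0.72 (log2 ratio), and 18 were not tested. The shares of 30.8% higher and 15.4% lower lie near the 25.4% and 25.1% of all tested genes. Tnnt2, the cardiac troponin T gene, which is also made in smooth muscle, was the 1 member with a mean of at least 100. It had a fitted level of 1303 in the knockout, against 7493 in wild type, and fell 5.75-fold per the authors' deposited table (log2 ratio -2.52, SE 0.12, adjusted p = 1.98e-89). Chrna1, a subunit of the muscle acetylcholine receptor, had 2.48 in the knockout and 24.7 in wild type and also fell. Those that rose were scarce: Ttn, the giant spring protein gene, was fitted at 62.1 in the knockout and below 1 count per library in wild type, with a log2 ratio interval of 5.83 to 10.78. Myh7, a slow myosin heavy chain gene, was fitted at 13.8 in the knockout and below 1 count per library in wild type, with a log2 ratio interval of 3.01 to 9.20. Tnnc1 and Neb rose 4.01-fold and 8.28-fold per the authors' deposited table, with fitted levels of 46.2 and 29.0 in the knockout, against 11.5 and 3.50 in wild type.

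A calcium channel and a signalling gene on the smooth muscle list also fell. Cacna1c, the pore of the L-type calcium channel, had a fitted level of 370.1 in the knockout, against 1102 in wild type (log2 ratio -1.57, SE 0.19, per the authors' deposited table), with neighbours at a median of -0.75. Irag1, a substrate of cyclic GMP-dependent kinase, had 46.6 in the knockout and 907.2 in wild type, with a log2 ratio of -4.28 (SE 0.71) per the authors' deposited table. Both were singled out after their values were seen.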
